A study of Sus scrofa with 8 samples.

Results

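In all, 10 genes of the Notch pathway were followed through 8 single-cell RNA libraries of pig embryos, namely the receptors NOTCH1, NOTCH2 and NOTCH3, the ligands DLL1 and JAG1, and the transcriptional repressors HES1, HES5, HES6, HEY1 and HEYL. They were taken by name, with no measured value in the rule, and all 10 have a row among the 21301 genes of each deposited matrix. The libraries were made from somites at embryonic day (E) 16, E18 and E21 and from myotomes, the muscle-forming part of the somite, at E28. At each stage there was 1 library of Tibetan pigs (ZZ) and 1 of Duroc × Tibetan pigs (DZ), and each library pooled 5 embryos of a single sow. No embryo carried an engineered allele and none was treated. The spread between libraries therefore holds the sow, the stage and the breed together, and differences over stage were tested as E16 and E18 (early, 4 libraries) against E21 and E28 (late, 4 libraries). The E28 tissue differs from the others, and both E16 libraries were processed with another version of the authors' counting software, so neither can be told apart from stage.

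Notch signalling passes between touching cells. A ligand of the Delta (DLL) or Jagged (JAG) family on one cell binds a NOTCH receptor on its neighbour, the receptor is cut by a metalloprotease and by gamma-secretase, and its inner part enters the nucleus, where it joins the DNA-binding protein RBPJ and switches on HES and HEY genes, whose products repress other genes. In the embryo the pathway is known for the segmentation of somites, for holding muscle and neural progenitors undifferentiated, and for shaping arteries. HES6 is the exception among the HES genes followed here, since it is known to accompany neurogenesis and myogenesis and to act against HES1.

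In the RefSeq annotation of the pig genome (Sscrofa11.1), NOTCH2 lies on chromosome 4 from 100951522 to 101152348 (plus strand, 34 exons), NOTCH3 on chromosome 2 from 62364507 to 62402348 (plus strand, 33 exons) and NOTCH1 on an unplaced scaffold (34 exons). The ligand genes DLL1 (12 exons) and JAG1 (25 to 26 exons) lie on chromosome 1 from 198815 to 211346 and on chromosome 17 from 19591248 to 19629659. The HES and HEY genes are short. HES1 spans chromosome 13 from 131135970 to 131137865, HES5 chromosome 6 from 64409110 to 64410541, HES6 chromosome 15 from 137785808 to 137787689, HEY1 chromosome 4 from 56859640 to 56863807 and HEYL chromosome 6 from 95442655 to 95459597, with 3 to 5 exons each.

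RBPJ is known to bind sites with the core TGGGAA. This core was searched on both strands in the 300 bases before the annotated start of the genes placed on a chromosome. At least 1 match was present in 28.8% and at least 2 in 4.8% of the 19556 windows of protein-coding genes. The windows of HES5 and HEYL, which hold matches, are shown with that of HES6, which holds none. They are written 5′ to 3′ on the strand of the gene, with the matches in capitals, and they cover chr6:64410542-64410841 (minus strand) for HES5, chr6:95459598-95459897 (minus strand) for HEYL and chr15:137787690-137787989 (minus strand) for HES6.
HES5: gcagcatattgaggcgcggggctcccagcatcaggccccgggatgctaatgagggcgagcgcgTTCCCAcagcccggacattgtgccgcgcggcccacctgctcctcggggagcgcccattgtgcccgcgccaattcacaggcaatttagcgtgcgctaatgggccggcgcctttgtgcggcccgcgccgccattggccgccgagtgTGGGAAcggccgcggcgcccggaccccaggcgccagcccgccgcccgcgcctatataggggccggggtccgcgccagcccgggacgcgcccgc
HEYL: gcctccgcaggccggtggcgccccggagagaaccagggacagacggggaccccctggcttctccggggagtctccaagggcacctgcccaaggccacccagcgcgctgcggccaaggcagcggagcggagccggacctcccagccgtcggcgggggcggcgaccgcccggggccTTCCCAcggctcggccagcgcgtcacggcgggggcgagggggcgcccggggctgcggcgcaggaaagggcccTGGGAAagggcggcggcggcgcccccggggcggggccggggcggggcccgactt
HES6: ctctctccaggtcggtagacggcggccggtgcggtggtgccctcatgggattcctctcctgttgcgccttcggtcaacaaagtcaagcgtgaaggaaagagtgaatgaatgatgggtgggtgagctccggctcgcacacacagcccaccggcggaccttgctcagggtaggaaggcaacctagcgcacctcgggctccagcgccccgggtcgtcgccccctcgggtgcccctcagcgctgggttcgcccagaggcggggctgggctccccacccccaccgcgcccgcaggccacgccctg
The matches began 237 and 93 bases upstream of HES5, and 126 and 54 bases upstream of HEYL. Both HES5 matches and the more distant HEYL match were part of the longer GTGGGAA, which 6.4% of all windows held. DLL1 held 2 matches and NOTCH2 1, none of them in the longer form, and the windows of NOTCH3, JAG1 and HES1 held none. A match describes these letters only, and a window without one says nothing of the bases outside it. The HES1 window ends in a run of A bases. Whether the annotated starts are those of transcription was not tested, so these windows need not hold the promoters.

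After removal of low-quality barcodes and likely doublets, 74147 cells remained, 5436 to 10956 per library, with 39852689 to 57568895 unique molecular identifiers (UMIs, counted RNA molecules) per library. The E16-ZZ library lost 39.3% of its barcodes to the quality limits and the others 1.31% to 9.45%, and any pair of libraries shared 23 to 49 barcodes. Cells were put into 18 classes by marker genes that include none of the 10 genes; each class name stands for the marker set and not for an authors' annotation, and 34.5% of the cells met no set. The tissue labels did not cover all cells. Somite libraries held endothelial cells (up to 7.16% of a library), epithelial cells (up to 13.1%) and cardiac muscle cells (up to 2.67%), and connective tissue cells took up to 50.5% of an E28 library. Levels are given as CPM, the gene's share of all UMIs of a class in a library multiplied by 1e6, for classes with at least 20 cells there. In erythroid cells none of the 10 genes was frequent enough to be tested over stage (2.85% of all genes passed there) or breed (0.06%). Erythroid cells, used to show the level that free RNA can give, had mean levels between 0 (DLL1) and 5.83 CPM (HES6).

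The 3 receptors had their highest means over libraries in different classes. NOTCH1, the receptor known from vessels and the nervous system, averaged 116 ± 25 CPM (SD, n = 8 libraries) in endothelial cells and ranged from 77.7 to 151.2 CPM there. Neural progenitors followed with 90.4 ± 76.7 CPM (n = 6) and neurons with 69.9 ± 44.1 CPM (n = 7), and the ranges of these classes overlapped that of endothelial cells. This order pools stages. In early libraries neurons averaged 114 CPM and endothelial cells 108 CPM, and in late libraries neural progenitors averaged 188 CPM and endothelial cells 125 CPM. NOTCH2 was spread over the mesoderm. Its highest mean, 76.1 CPM, was that of macrophages, which only 2 libraries held in number. It averaged 67.7 ± 9.6 CPM in muscle progenitors (n = 6), 66.5 ± 8.3 CPM in committed myoblasts (n = 4), 61.1 CPM in mural cells (44.4 to 103 CPM, n = 7; the contractile cells around vessels) and 59.9 ± 13.7 CPM in sclerotome (n = 6), all with overlapping ranges. Its level in endothelial cells was 2.61 to 6.73 CPM in the 8 libraries, within the range in erythroid cells of 0 to 9.98 CPM. NOTCH3, known from mural and muscle cells, averaged 73.9 ± 44.7 CPM in muscle progenitors and 70.2 ± 25.0 CPM in committed myoblasts, against 42.8 ± 30.4 CPM in mural cells and 38.6 ± 19.4 CPM in neural progenitors, again with overlap between neighbours.

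**Figure D1:**
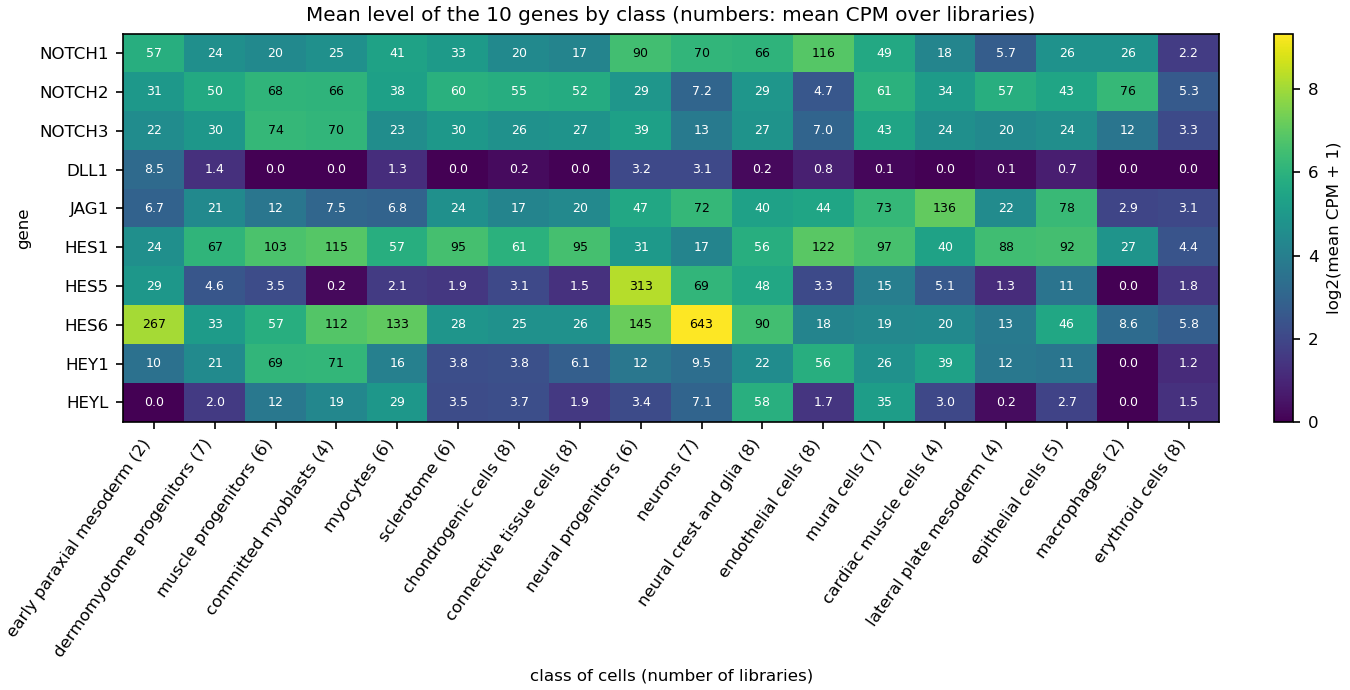
Mean level of the 10 genes in the 18 classes of cells. Rows are genes, columns are classes with the number of libraries in brackets, the number in each field is the mean CPM over libraries and the colour is log2 of that mean plus 1. By this mean, which pools early and late libraries, NOTCH1 is highest in endothelial cells, NOTCH3 in muscle progenitors, HES5 in neural progenitors and HES6 in neurons. For NOTCH1 the endothelial mean is below that of neurons early and below that of neural progenitors late.

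JAG1 was the ligand with substantial counts. Its highest mean was in cardiac muscle cells, at 99.3 and 67.0 CPM in the E16-ZZ and E16-DZ libraries and 164 and 215 CPM in the E18-ZZ and E18-DZ libraries. In epithelial cells JAG1 stood at 22.7 and 19.99 CPM at E16 and at 160.5 and 149.95 CPM at E18 in ZZ and DZ, and the E21-ZZ library gave 38.5 CPM. The E18 libraries were thus the highest in both classes. Cardiac muscle cells were summed in early libraries alone, with a mean of 136 CPM, and the neurons of early libraries averaged 141 CPM (n = 3). Their first rank thus rests on pooling the neurons over stages. DLL1, which is known to drive somite segmentation and to be carried by differentiating neighbours of muscle and neural progenitors, was scarce: it gave 235 UMIs in all 74147 cells, 0.33 to 1.00 CPM per library. The largest mean was in early paraxial mesoderm, the unsegmented tissue that precedes somites, with 6.94 and 10.0 CPM in the E16 libraries, resting on 4 UMIs. Neural progenitors (3.17 ± 2.63 CPM, n = 6) and neurons (3.14 ± 2.38 CPM, n = 7) came next, with ranges of 0 to 7.54 and 0 to 6.70 CPM; the first overlapped that of early paraxial mesoderm and the second did not. Along the muscle lineage DLL1 was seen in 8 of 884 dermomyotome progenitors and 34 of 2872 myocytes. No cell with a DLL1 UMI was found among 2060 muscle progenitors, which allows up to 0.146% of cells with a UMI, nor among 648 committed myoblasts (up to 0.463%) or 1015 sclerotome cells (up to 0.296%). These limits cover counting error only and say nothing of cells that carry DLL1 RNA without a UMI at this depth, and DLL1 was too low to be tested within any class.

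Among the HES and HEY genes, HES6 was the only one whose highest class did not overlap the next. In neurons it stood between 386 and 977 CPM in 7 libraries (mean 643 ± 239), above every value in every other class, and early paraxial mesoderm came closest with 278 and 257 CPM in the E16-ZZ and E16-DZ libraries. A HES6 UMI was found in 55.7% to 82.2% of the neurons of a library and in 1.39% to 9.09% of the erythroid cells, at median depths of 3807 to 4683 and 3852 to 12339 UMIs per cell. With each cell thinned to 1500 UMIs these shares averaged 48.8% and 0.80%. HES5, a target known from neural stem cells, averaged 313 ± 315 CPM in neural progenitors, where a UMI was found in 32.9% to 80.9% of the cells of a library (27.7% on average at 1500 UMIs, against 0.33% of erythroid cells). HES1 was broad and had no class that stood out: endothelial cells (122 ± 83 CPM), committed myoblasts (115 ± 77), muscle progenitors (103 ± 67) and 4 further classes had means above 92 CPM with overlapping ranges. HEY1 was highest in committed myoblasts (70.5 ± 42.2 CPM, n = 4), muscle progenitors (68.9 ± 41.7 CPM, n = 6) and endothelial cells (56.1 ± 18.8 CPM, n = 8), and HEYL in neural crest and glia (57.7 ± 48.7 CPM, n = 8), mural cells (35.4 ± 50.05 CPM, n = 7) and myocytes (29.4 ± 7.3 CPM, n = 6). The SDs of these means hold the differences between stages and breeds as well. Committed myoblasts were summed in late libraries alone, where muscle progenitors averaged 94.8 CPM of HEY1, above the 70.5 CPM of committed myoblasts.

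Neural progenitors were taken by SOX3, SOX21 or PAX6 with a further marker, because SOX2 was not used here, and neurons by ELAVL3 or ELAVL4 with 2 further markers. PAX6 was found in 97.1% to 100.0% of the neural progenitors of a library, SOX3 in at most 4.38% and SOX21 in at most 0.90%, so the class is in effect one of PAX6 cells. Pooled over stages, neurons carried more HES6 and less of 2 receptors and 2 target genes than neural progenitors. In a fit over all classes with the library as a block, HES6 was 3.95-fold higher in neurons (log2 difference 1.98 ± 0.26 SE, adjusted p = 4.73e-10, edgeR). HES5 was 4.37-fold lower (−2.13 ± 0.49, adjusted p = 0.00023), NOTCH3 4.52-fold lower (−2.18 ± 0.34, adjusted p = 1.27e-07), NOTCH2 4.28-fold lower (−2.10 ± 0.24, adjusted p = 1.11e-11) and HES1 2.69-fold lower (−1.43 ± 0.41, adjusted p = 0.0029). That made 5 of the 9 tested genes that differed, read against 39.5% of the 12424 genes tested in this comparison. NOTCH1 (−0.45), JAG1 (0.42), HEY1 (−0.49) and HEYL (0.55) did not pass. For each of these, neurons had the higher mean early and neural progenitors the higher mean late. NOTCH1 averaged 114 CPM in neurons and 41.7 CPM in neural progenitors early, and 36.5 and 188 CPM late. JAG1 averaged 141 and 37.7 CPM early and 20.8 and 66.8 CPM late. Of 43 other pathway genes, 16 were higher and 5 lower in neurons. The proneural factors NEUROD1 (log2 difference 7.07) and NEUROD4 (3.91), the ligands DLL4 (4.16) and DLL3 (3.28), the glycosyltransferase MFNG (4.35), which modifies the receptors, and the regulator DTX1 (3.58) showed the largest differences. The HES1 difference did not pass without the E21-ZZ library (−1.14). NOTCH3 averaged 24.8 CPM in neurons and 26.6 CPM in neural progenitors of early libraries, and 4.6 and 62.6 CPM in late ones. HES1 averaged 31.0 and 27.3 CPM early and 7.35 and 39.8 CPM late. The lower NOTCH3 and HES1 of neurons thus lay on the late side, where neural progenitors had only the E21 pair. The means of HES6, HES5 and NOTCH2 differed in the same direction early and late.

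In neural crest and glia, the SOX10 cells that give rise to peripheral glia, 8 of the 9 tested genes rose from the early to the late libraries, where 27.9% of the 8305 genes tested changed. JAG1 stood at 7.48, 5.64, 8.87 and 7.99 CPM in E16-ZZ, E16-DZ, E18-ZZ and E18-DZ, and at 45.3, 55.3, 70.8 and 117 CPM in E21-ZZ, E21-DZ and the E28-ZZ and E28-DZ libraries. Every late library was above every early one, a rise (log2 3.11 ± 0.30, adjusted p = 1.8e-05). HEY1 was near the level of erythroid cells early, at 2.49, 3.76, 1.04 and 1.60 CPM from 2 to 6 UMIs per library, and reached 36.0, 21.15, 32.5 and 81.1 CPM in the late libraries in the same order (log2 4.38 ± 0.48, adjusted p = 5.7e-05). HES5 went from 1.25, 6.58, 5.74 and 9.06 CPM to 40.4, 17.1, 83.5 and 217 CPM (log2 3.67 ± 0.65, adjusted p = 0.0015). The groups did not overlap for these target genes either. HES6 went from 12.5, 6.58, 26.1 and 29.0 CPM to 135, 108, 125 and 274 CPM (log2 2.86 ± 0.34, adjusted p = 9.1e-05), and NOTCH1 from 7.48, 17.9, 33.9 and 34.1 CPM to 103, 100.3, 87.0 and 142 CPM (log2 2.005 ± 0.27, adjusted p = 0.00021). HEYL was low at E16 (1.25 and 3.76 CPM), intermediate at E18 (31.8 and 31.7 CPM) and stood at 56.85 to 124 CPM in the late libraries (log2 2.22 ± 0.46, adjusted p = 0.0037). NOTCH3 (log2 1.66 ± 0.21) and HES1 (1.42 ± 0.20) rose as well, and NOTCH2 did not pass (0.48 ± 0.21, adjusted p = 0.099). NOTCH2, NOTCH3 and HES1 reached the count filter in both groups of libraries, whereas the other 6 genes reached it through the late libraries alone, so their passing is no separate support. The early levels were within the range of erythroid cells in all 4 libraries for HEY1, in 3 for JAG1 and HES5, in 2 for HEYL and in 1 for NOTCH1 and HES6, so the size of these rises is uncertain. All 8 rises passed in every alternative tried, the one with no filter on counts included. Of 28 other pathway genes tested there, 7 rose and 1 fell: the targets HEY2 (3.89) and HES4 (2.74), the gamma-secretase subunit PSEN2 (1.62), the protease ADAM10 (1.08) and DTX4 (0.93) rose the most, and the glycosyltransferase LFNG fell by 0.84 on the log2 scale. Markers of the class moved too. The glial marker FABP7 was higher late (17.9 to 32.9 CPM early, 142.7 to 234 CPM late), TFAP2B, a crest marker, was at 142 to 262 CPM early and 99.6 to 154 CPM late, and FOXD3, which defines early crest, was at 0 to 1.20 CPM in all libraries. The part of such a shift within the class in the result was not tested.

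**Figure D2:**
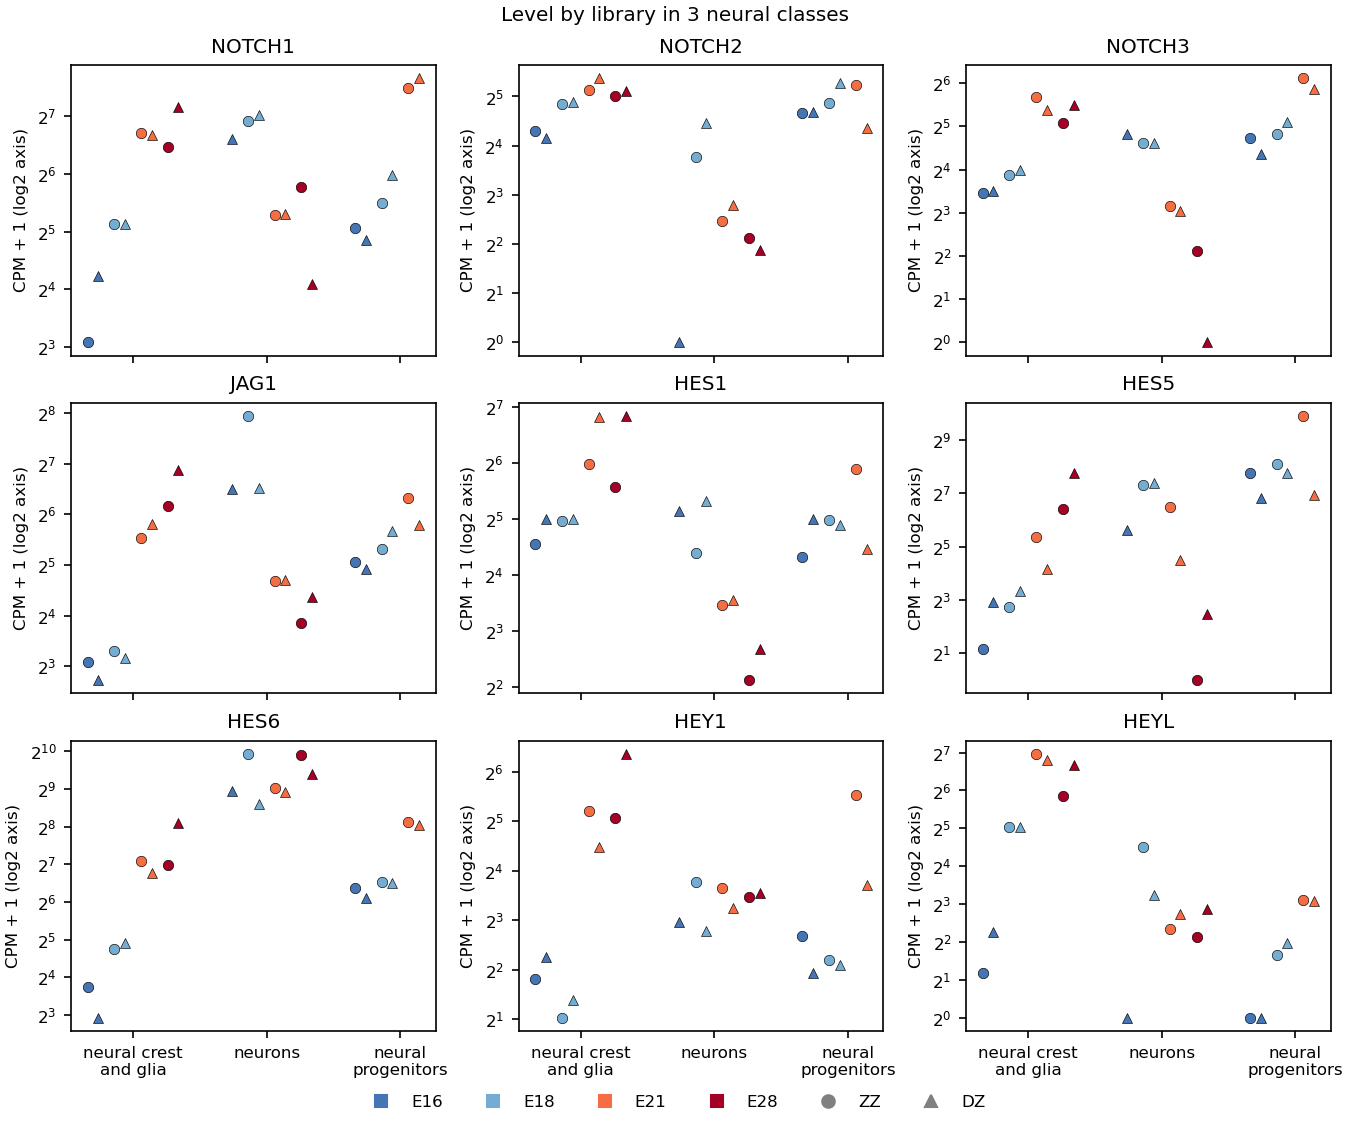
Levels in the neural classes by library. Each panel is a gene, the vertical axis is CPM plus 1 on a log2 axis, each point is a library coloured by stage and shaped by breed; in neural crest and glia the late libraries lie above the early ones for JAG1, HES5, HES6, HEY1 and HEYL, and in neurons the late libraries lie below the early ones for NOTCH1, JAG1 and HES1.

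Neurons moved the other way. E16-ZZ had under 20 neurons and is not part of this test. Of 7 genes tested in neurons, 5 fell from the early to the late libraries, where 20.4% of the 8895 genes tested changed. JAG1 was at 88.9, 244 and 91.1 CPM in E16-DZ, E18-ZZ and E18-DZ and at 24.7, 25.2, 13.4 and 19.7 CPM in E21-ZZ, E21-DZ and the E28-ZZ and E28-DZ libraries, a 6.92-fold fall (log2 −2.79 ± 0.33, adjusted p = 0.00061). NOTCH1 was at 95.8, 119 and 128 CPM early and at 38.0, 38.4, 53.6 and 16.2 CPM late (log2 −1.94 ± 0.33, adjusted p = 0.0033). No late library reached an early one for either gene. HES1 (log2 −1.92 ± 0.42), NOTCH3 (−2.25 ± 0.62) and HES5 (−2.54 ± 0.73) fell as well, while HES6 (−0.08 ± 0.27) and HEY1 (0.12 ± 0.44) did not pass. NOTCH3, HES1 and HES5 reached the count filter through the early libraries alone. Late neurons had 0 to 7.95 CPM of NOTCH3 and 3.35 to 10.7 CPM of HES1, where erythroid cells reached 6.11 and 9.82 CPM. The size of the NOTCH3 and HES1 falls is therefore uncertain. HES5 was at 47.9 to 166 CPM early and at 0 to 88.1 CPM late, so its groups overlapped. Its lowest late value was within the erythroid range of 0 to 7.0 CPM, so the size of its fall is uncertain as well. The HES5 call was lost in 7 of 17 alternatives, the DESeq2 test and 1 further marker fewer among them. The NOTCH3 call was lost in 5 of 16, a mitochondrial limit of 5% among them. The NOTCH3 and HES5 calls were each lost without E16-DZ (−2.23 and −2.71), E18-ZZ (−2.62 and −3.19) or E18-DZ (−2.30 and −1.76), and HES5 without E21-DZ (−2.66), and the HES1 call without either E18 library (−2.27 without E18-ZZ and −1.76 without E18-DZ) and when doublets were kept (−0.64). Of 38 other pathway genes, 7 fell and 3 rose, among them DLL4 (−3.74), LFNG (−2.61), HES4 (−2.22) and ADAM17 (−1.57), which fell, and NEUROD1 (1.89), which rose. Here too the markers of the class moved: PAX6, which marks progenitors, was at 56.1 to 123 CPM in the early and 0 to 18.6 CPM in the late neurons, and STMN2, a neuronal marker that was one of the further markers of the class, at 794 to 1531 and 5511 to 7953 CPM. Whether these shifts carry the falls was not tested.

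Whether the stage difference was the same in both classes was tested next; the test does not show that the signs are opposite, and it was prompted by the values above. In a joint fit of both classes, chosen after seeing the data, the stage difference in neural crest and glia minus that in neurons was above 0 and passed for the 7 genes that could be tested over stage in both classes, where 15% of 9739 genes passed. For HES6 and HEY1, which did not fall in neurons, the difference repeats the rise in neural crest and glia. The joint fit draws on the same sums as the stage tests above, so its passes are no separate support for them. The largest was 5.58 ± 0.43 on the log2 scale for JAG1 (adjusted p = 6.41e-07), followed by HES5 (5.17 ± 1.09), HEY1 (4.09 ± 0.72), NOTCH3 (3.72 ± 0.53) and NOTCH1 (3.62 ± 0.38). NOTCH2 and HEYL, too low in neurons for a stage test there, were in the fit through neural crest and glia and are not counted. Neural progenitors had only the E21 pair on the late side. In a test of them, also chosen after seeing the data, HES6 rose from 81.1, 67.3, 90.7 and 89.1 CPM in the early libraries to 276 and 264 CPM in E21-ZZ and E21-DZ (log2 1.63 ± 0.17, adjusted p = 2e-05). NOTCH1 went from 32.5, 28.0, 44.3 and 62.2 CPM to 176 and 199 CPM (2.05 ± 0.22, adjusted p = 4.1e-05). HEY1 (2.80 ± 0.44) and NOTCH3 (1.14 ± 0.23) rose as well, making 4 of 8 genes tested, beside 12.4% of all genes. HEY1 reached the count filter through the E21 pair alone. Its early levels of 2.80 to 5.41 CPM were close to the erythroid range of 0 to 5.31 CPM, so the size of its rise is uncertain. In the same cells FABP7 went from 26.2 to 68.9 CPM early to 572 and 597 CPM at E21 and the neuronal marker ELAVL3 from 1.4 to 7.5 CPM to 18.9 and 19.6 CPM, while PAX6 was between 315 and 387 CPM; the part of these shifts was not tested. Other pathway genes that rose in these cells were DLL3 (4.51), NEUROD4 (2.34), DTX4 (1.66) and HES4 (1.00), 4 of 32.

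**Figure D3:**
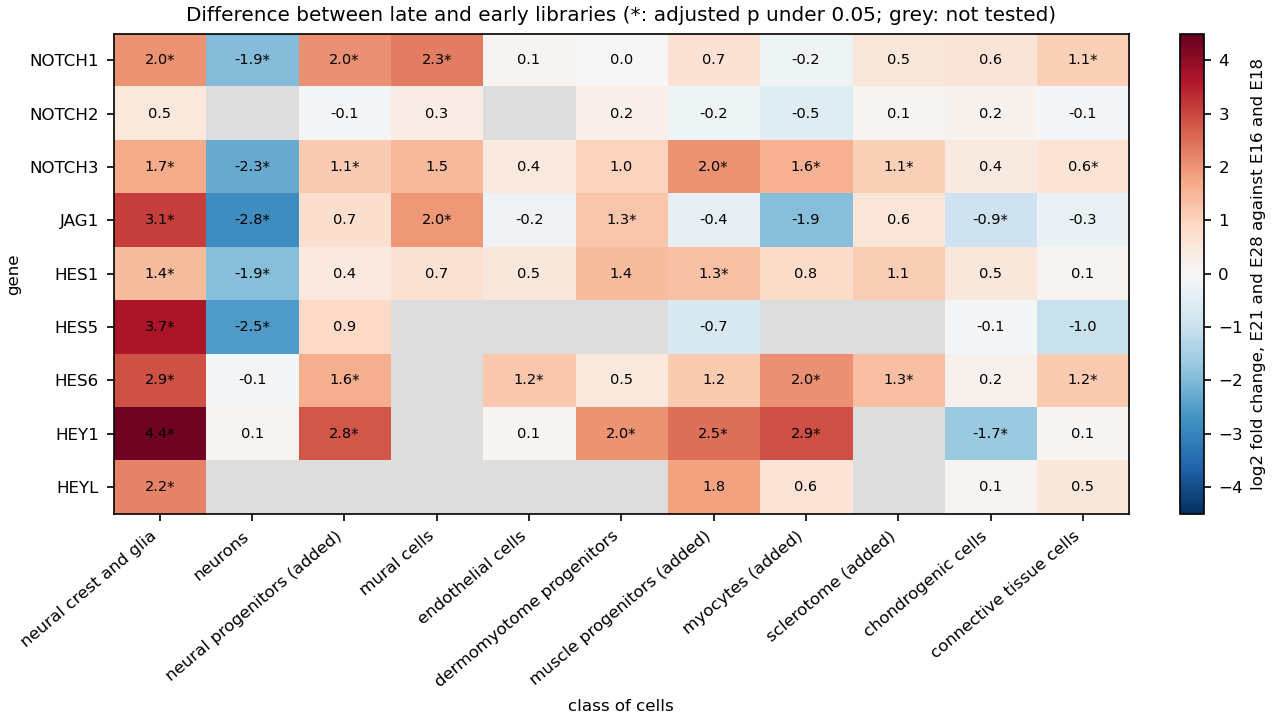
Difference between late and early libraries within 11 classes. Each field gives the log2 fold change from the edgeR fit, red for higher late and blue for lower late; an asterisk marks an adjusted p under 0.05, grey a gene that was not tested, and "added" a class with only 2 libraries on a side, tested after seeing the data. Neural crest and glia has 8 marked rises and neurons 5 marked falls.

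The muscle lineage was followed from dermomyotome progenitors (PAX3) through muscle progenitors (MYF5) and committed myoblasts (MYOD1) to myocytes (MYOG or MYMK). The receptors NOTCH2 and NOTCH3 and the target HEY1 were at their highest in the middle of this series and fell in myocytes, whereas HES6 and HEYL had their highest means in myocytes. From dermomyotome to muscle progenitors, NOTCH3 rose (log2 1.15 ± 0.30, adjusted p = 0.023) and HEYL rose (2.57 ± 0.71, adjusted p = 0.040), 2 of 9 genes beside 1.32% of all genes; HEY1 (1.57 ± 0.48, adjusted p = 0.080) did not pass. Both calls were lost with the DESeq2 test (differences of 1.01 and 2.43) and without the E28-DZ library (0.94 and 1.99). Neither passed with DESeq2 size factors, with a mitochondrial limit of 5% or without the E16 or the E28 libraries. At most 1 of them passed when any single library was left out. HEYL in dermomyotome progenitors rested on 9 UMIs in 884 cells. Its mean of 2.03 CPM there was within the erythroid range of 0 to 4.79 CPM, so the size of its rise is uncertain. From muscle progenitors to committed myoblasts none of the 9 genes passed in edgeR or DESeq2, none had an unadjusted p under 0.05, and 0.0161% of all genes passed. From committed myoblasts to myocytes, 3 of 9 genes fell beside 12.3% of all genes: HEY1 (3.104-fold, log2 −1.63 ± 0.49, adjusted p = 0.015), NOTCH3 (2.24-fold, −1.16 ± 0.31, adjusted p = 0.0059) and NOTCH2 (1.65-fold, −0.72 ± 0.21, adjusted p = 0.013). HES6 (0.78 ± 0.31, adjusted p = 0.088) and HEYL (0.96 ± 0.46, adjusted p = 0.18) did not pass. In E21-ZZ HEY1 went the other way, at 11.2 CPM in 50 committed myoblasts, where all late myocyte libraries had 13.2 to 34.2 CPM. The HEY1 call was also lost with at least 50 cells per sum. None of these 3 falls passed without the E28 libraries (NOTCH3 −0.82, NOTCH2 −0.68, HEY1 −1.37), which held 268 (ZZ) and 283 (DZ) of the 648 committed myoblasts; without E28-ZZ alone NOTCH3 (−1.05) and HEY1 (−1.44) were lost, and without E28-DZ alone NOTCH2 (−0.59). Of 43 other pathway genes, 8 were higher in myocytes and none lower, led by the non-canonical ligand DLK1 (3.42), the ligand JAG2 (3.15), PSEN2 (2.08), NEURL1 (1.79) and MIB1 (1.41), the last 2 of which are ubiquitin ligases that act on ligands in the sending cell, and NUMBL (1.20), a relative of the inhibitor NUMB.

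**Figure D4:**
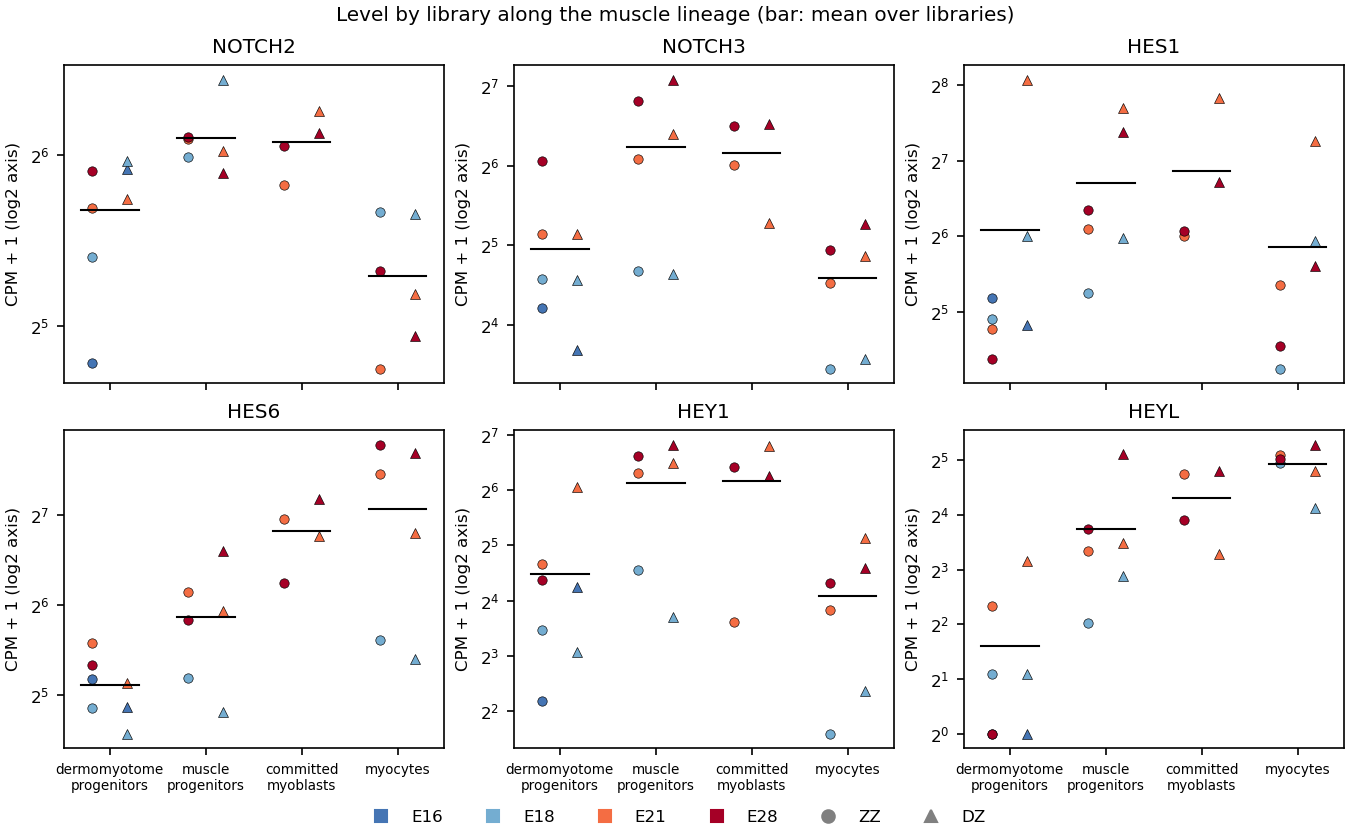
Levels along the muscle lineage by library. Each panel is a gene, the vertical axis is CPM plus 1 on a log2 axis, points are libraries coloured by stage and shaped by breed and bars are means over libraries. The means of NOTCH2, NOTCH3 and HEY1 are higher in muscle progenitors and committed myoblasts than in myocytes. HEY1 in the committed myoblasts of E21-ZZ (11.2 CPM) is below all late myocyte libraries (13.2 to 34.2 CPM). The E18 libraries are the lowest for HEY1 in myocytes.

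Within these classes the E18 libraries were lower than the later ones for HEY1 and NOTCH3. In muscle progenitors HEY1 was at 22.4 and 12.0 CPM in E18-ZZ and E18-DZ and at 79.0, 89.8, 97.8 and 112 CPM in E21-ZZ, E21-DZ and the E28-ZZ and E28-DZ libraries, and NOTCH3 was at 24.7 and 23.9 CPM and then at 66.7, 83.5, 111 and 133.8 CPM. In myocytes HES6 was at 47.9 and 41.2 CPM at E18 and then at 174, 109.9, 218 and 205 CPM in E21-ZZ, E21-DZ and the E28-ZZ and E28-DZ libraries. The E18 pair lay below all later libraries in each of these. In tests with only the E18 pair on the early side, chosen after seeing the data, HEY1 (2.47 ± 0.29), NOTCH3 (2.02 ± 0.30) and HES1 (1.32 ± 0.24) rose in muscle progenitors, 3 of 9 genes beside 4.4% of all genes. HEY1 (2.91 ± 0.57), HES6 (2.04 ± 0.28) and NOTCH3 (1.57 ± 0.33) rose in myocytes, 3 of 8 beside 6.33% of all genes, while JAG1 (−1.93 ± 0.50, adjusted p = 0.058) did not pass; HEY1 in myocytes reached the count filter through the late libraries alone. Markers of these classes and of connective tissue differed between the same libraries. In muscle progenitors MYF5 was at 241 and 174 CPM at E18 and at 430 to 1063 CPM later, MSC at 0 and 1.6 and then at 90.3 to 1474 CPM, LUM at 2.3 and 8.0 and then at 110 to 430 CPM, and DCN at 20.8 and 27.9 and then at 163 to 712 CPM. PAX3 went the other way there, from 189.8 and 190.3 CPM at E18 to 56.4 to 132 CPM later. In myocytes MYOD1 was at 6.0 and 2.7 CPM at E18 and at 186 to 529 CPM later, LUM at 2.0 and 5.5 and then at 82.1 to 227 CPM, while MYMK was at 770 to 970 CPM throughout. ACTA1 went the other way there, from 717 and 1065 CPM at E18 to 233 to 490 CPM later. The part of these shifts was not tested. In dermomyotome progenitors, HEY1 (log2 2.02 ± 0.45, adjusted p = 0.014) and JAG1 (1.26 ± 0.34, adjusted p = 0.044) rose, 2 of 7 genes beside 6.88% of all genes. The HEY1 call there was lost without the E21-DZ library (1.46), where HEY1 reached 65.8 CPM against 3.53 to 24.3 CPM in the other 6 libraries, and the JAG1 call in 10 of 15 alternatives. Both genes reached the count filter there through the late libraries alone, and LUM was at 0 to 11.2 CPM early and 274 to 860 CPM late in the same cells. None of 18 other pathway genes passed in dermomyotome progenitors, where 5 had an unadjusted p under 0.05. In muscle progenitors DLK2 (3.69), a non-canonical ligand, rose and MESP1 (−1.40) fell, 2 of 30, and in myocytes DLK1, DLK2, PSEN2 (2.20) and MIB1 (1.58) rose, 4 of 30.

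Endothelial cells were compared with the average of the fitted log2 levels of the other classes, each class with equal weight. NOTCH1 was 4.76-fold higher (log2 2.25 ± 0.20), JAG1 2.32-fold higher (1.22 ± 0.34) and HES1 2.26-fold higher (1.18 ± 0.20). Classes with few counts pull this average down. The JAG1 mean of endothelial cells (44.4 CPM) ranked below those of cardiac muscle cells (136), epithelial cells (78.3), mural cells (73.2), neurons (72.5) and neural progenitors (47.4 CPM). HEY1 was higher as well; macrophages held no HEY1 UMI, so its size is given from sums of at least 50 cells, which leave them out (2.42 on the log2 scale). NOTCH2 was 6.98-fold lower (−2.80 ± 0.18), NOTCH3 3.37-fold lower (−1.75 ± 0.28) and HES6 2.79-fold lower (−1.48 ± 0.28), all with adjusted p of 0.0020 or less for the values given, and HES5 and HEYL gave no usable estimate. That made 7 of 9 genes, where 42.8% of all genes differed. The HES6 call was lost without the E28-ZZ library (−0.99) and the JAG1 call without the E16-ZZ library (0.77). That library had 79.6 CPM of JAG1 in endothelial cells, beside 29.3 to 36.6 CPM in the other early libraries. Of 43 other pathway genes, 18 were higher and 4 lower in endothelial cells. The arterial ligand DLL4 (96.6 ± 61.7 CPM, n = 8), the endothelial receptor NOTCH4 (70.1 ± 32.7 CPM, n = 8), JAG2 (39.7 ± 12.5 CPM, n = 8), HES2, MFNG and NEURL1B differed most; some of the other classes held no UMI of several of them, so no fold is given. Over stage, HES6 rose in endothelial cells (1.20 ± 0.25, adjusted p = 0.0051), the only one of 6 genes tested that passed, beside 26% of all genes. Without the E16 libraries it did not pass (1.08). It was at 8.69 to 11.8 CPM early and 20.1 to 35.5 CPM late, and erythroid cells reached 10.6 CPM, so the size of this rise is uncertain. The part of a shift within the class was not tested. Among 30 other pathway genes 5 rose and 2 fell, with HEY2 (−2.82), HES2 (2.19), LFNG (1.70), MFNG (1.58), NOTCH4 (1.13) and ADAM10 (0.80) named by size.

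NOTCH1 and JAG1 rose in mural cells. NOTCH1 stood at 13.1, 12.8, 23.9 and 18.5 CPM in the early libraries and at 117, 96.3 and 58.9 CPM in E21-ZZ, E21-DZ and E28-ZZ (log2 2.30 ± 0.33, adjusted p = 0.0012). JAG1 stood at 21.9, 17.9, 34.9 and 57.6 CPM early and at 189.8, 169 and 22.1 CPM late (1.95 ± 0.45, adjusted p = 0.023), so the E28-ZZ library fell among the early ones. These were 2 of 5 genes tested, beside 6.32% of all genes, and neither passed without the E21-DZ library (2.09 and 1.86); the JAG1 call was also lost without E18-ZZ (2.11) or E21-ZZ (1.41). HEYL in mural cells was 0, 0, 8.26 and 19.5 CPM early, 125 and 87.3 CPM at E21 and 7.37 CPM at E28, but did not reach the count filter. NOTCH1 reached the count filter through the late libraries alone. Markers of mural cells moved as well in part. PDGFRB was at 46.1 to 96.2 CPM early and at 291, 253 and 169.5 CPM late, KCNJ8 at 0 to 12.8 and at 84.8, 72.2 and 44.2 CPM, without overlap. The groups overlapped for ACTA2, at 274 to 1127 CPM early and at 408, 963 and 471.5 CPM late, for MCAM, at 5.1 to 19.5 and at 76.7, 75.2 and 14.7 CPM, and for RGS5, which was at 184 to 262 CPM early and at 694.5, 599 and 221 CPM late, so that RGS5, like JAG1, was back among the early values in E28-ZZ. The part of these shifts was not tested. None of 12 other pathway genes passed, and 2 had an unadjusted p under 0.05.

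In chondrogenic and connective tissue cells 2 and 3 of 9 genes passed over stage. JAG1 (log2 −0.94 ± 0.28, adjusted p = 0.033) and HEY1 (−1.66 ± 0.41, adjusted p = 0.016) fell in chondrogenic cells, 2 of 9 genes beside 26.3% of all genes, and the JAG1 call was lost in 9 of 18 alternatives and the HEY1 call without E16-DZ (−1.39). HEY1 reached the count filter through the early libraries alone and was low there throughout, at 3.44 to 9.42 CPM early and 1.26 to 2.36 CPM late. In connective tissue cells NOTCH1 (1.06 ± 0.20, adjusted p = 0.0066), HES6 (1.17 ± 0.23, adjusted p = 0.0078) and NOTCH3 (0.62 ± 0.16, adjusted p = 0.020) rose, 3 of 9 beside 27.3% of all genes. NOTCH1 there was at 7.95, 8.19, 12.5 and 12.5 CPM early and at 26.4, 27.9, 21.5 and 22.3 CPM late, without overlap. The NOTCH1 and NOTCH3 calls did not pass without the E16 libraries (0.89 and 0.59), and the NOTCH3 call was also lost without E16-DZ (0.57) or E18-DZ (0.55). In sclerotome, tested with the E18 pair alone on the early side after seeing the data, NOTCH3 (1.08 ± 0.29) and HES6 (1.35 ± 0.35) rose, 2 of 6 beside 9.04% of all genes, and DTX1 (−3.94) was the one of 23 other pathway genes that passed. Markers differed between the same libraries. In connective tissue cells HAND1 was at 244 to 450 CPM early and 0 to 3.1 CPM late and OGN at 26.7 to 50.4 and at 113 to 1719 CPM, in chondrogenic cells ACAN was at 11.6 to 21.2 and at 69.5 to 227 CPM, and in sclerotome OGN was at 16.4 and 10.1 CPM at E18 and at 125 to 1690 CPM later. The part of these shifts was not tested. Between chondrogenic cells and sclerotome none of the 9 genes passed in edgeR or DESeq2 and none had an unadjusted p under 0.05, where 0.161% of all genes passed. Other pathway genes that fell in chondrogenic cells were DTX1 (−4.30), LFNG (−1.69) and DTX4 (−1.21), and NUMBL (1.38), DTX3 (0.86) and RBPJ (0.47) rose, 6 of 32. In connective tissue cells JAG2 (−2.53) and HEY2 (−2.05) fell and NUMB (0.64) and RBPJ (0.50) rose, 4 of 35.

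Summed over whole libraries, 2 of the 10 genes rose from early to late, beside 34.3% of 14337 genes that changed. NOTCH3 was at 17.1, 17.6, 22.6 and 23.7 CPM in E16-ZZ, E16-DZ, E18-ZZ and E18-DZ and at 33.8, 33.6, 35.6 and 46.3 CPM in E21-ZZ, E21-DZ and the E28-ZZ and E28-DZ libraries (log2 0.71 ± 0.13, adjusted p = 0.0066). HES6 was at 28.0, 31.9, 48.5 and 39.8 CPM early and at 187, 97.4, 59.1 and 106 CPM late (1.42 ± 0.31, adjusted p = 0.011). The early and late libraries did not overlap for either gene, but neither passed without the E16 libraries (0.60 and 1.25). In whole-library sums, more cells of a class and more RNA per cell cannot be told apart; neurons, the class with the highest HES6, were 0.28% to 2.31% of the early libraries and 17.7%, 8.22%, 0.62% and 1.98% of the late ones. The other 8 genes did not pass, with log2 differences from −0.84 (JAG1) to 1.42 (HEYL, SE 0.74). Among 45 other pathway genes 8 rose and 2 fell, led by DLK2 (3.81), NEUROD1 (3.57), DLL4 (−1.58), JAG2 (−1.07), NEURL1 (1.05) and NUMBL (0.99).

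Few differences passed between the breeds. None of the 10 genes passed between DZ and ZZ in whole libraries in edgeR or DESeq2, none had an unadjusted p under 0.05, and 0% of all 14337 genes passed (869 with an unadjusted p under 0.05). Within classes the share of all genes that passed was at most 0.258%, with 0.0413% in dermomyotome progenitors, 0.0119% in endothelial cells and 0.118% in sclerotome, and 2 of 79 tests of these genes passed (16 with an unadjusted p under 0.05). HES1 in myocytes was at 18.0 and 60.4 CPM in ZZ and DZ at E18, at 40.02 and 152 CPM at E21 and at 22.3 and 47.5 CPM at E28. DZ was higher at each stage, 3.005-fold over all (log2 1.59 ± 0.21, adjusted p = 0.00044), and 0.258% of the 9299 genes tested passed. The call remained in all 17 alternatives, with 1.19 to 2.02 on the log2 scale. HES1 was also high in a single library. Its whole-library level was 177 CPM in E21-DZ and 44.4 to 112 CPM in the others, and E21-DZ was the highest library in 9 of 13 classes. The breed difference of HES1 was towards DZ in 10 of 11 classes tested, but these share libraries, and outside myocytes none passed (muscle progenitors 1.20 ± 0.19, adjusted p = 0.080, beside 0.0327% of all genes). The 10 measured genes of a list of genes known to respond to tissue handling, such as FOS and EGR1, summed to 1870 CPM in E21-DZ, within the 1682 to 5202 CPM of the other libraries, but the sum holds HSPA8, which was lowest in E21-DZ (664 CPM, against 945 to 1755 CPM). Of the 10 genes only NR4A1 was at its highest in E21-DZ (34.0 CPM, against 5.80 to 26.2 CPM), and FOS, FOSB and EGR1 were at their highest in E28-DZ. FOS was higher in DZ than in ZZ at E18 (243 and 116 CPM), E21 (524 and 348 CPM) and E28 (2608 and 613 CPM) and lower at E16 (440 and 720 CPM), as HES1 was in whole libraries. FOSB was at 249 CPM in E21-DZ and 49.8 CPM in E21-ZZ. Their part in the HES1 differences was not tested. HES5 in neural progenitors was lower in DZ (log2 −1.29 ± 0.26, adjusted p = 0.048, beside 0.108% of all genes). The values were 214 and 112 CPM at E16, 272 and 215 CPM at E18 and 944 and 121 CPM at E21 for ZZ and DZ, and the call was lost in 8 of 18 alternatives, with −0.59 without either E21 library. E21-ZZ was the library with the most HES5 also in mural (72.7 CPM), endothelial (17.2 CPM) and connective tissue cells (4.05 CPM). Its 44 erythroid cells gave 2.65 CPM, but with 376910 UMIs of all genes they cannot set the level of free HES5 RNA closely. Neurons, which also carry HES5, were 17.7% of that library; their part was not tested. None of 307 tests of other pathway genes passed between the breeds within classes, and 16 had an unadjusted p under 0.05.

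**Figure D5:**
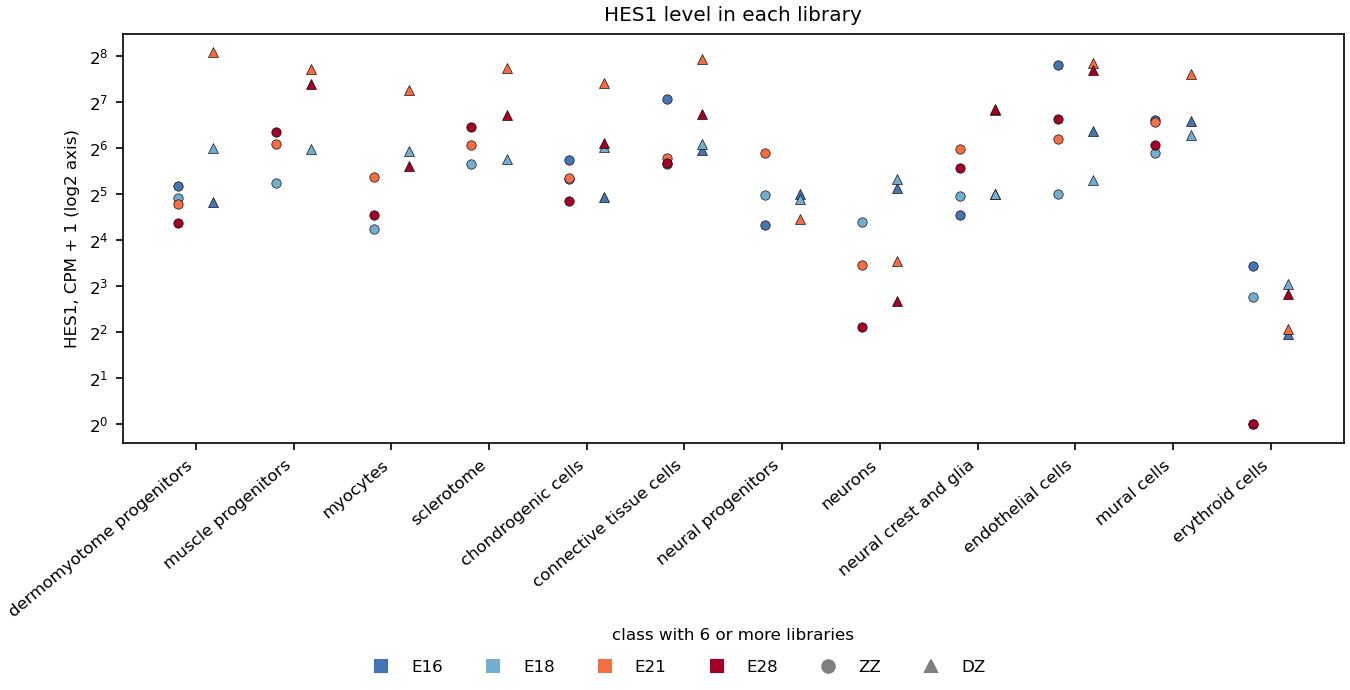
HES1 in each class by library. The horizontal axis gives classes with 6 or more libraries, the vertical axis CPM plus 1 on a log2 axis, and points are libraries coloured by stage and shaped by breed; E21-DZ (orange triangle) is the highest point in 8 of the 12 classes drawn, and the DZ points lie above the ZZ points of the same stage in myocytes.

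The genes whose levels ran most like each of the 10 were taken over the 106 sums of a class in a library, by Pearson's r of log2(CPM + 1) among 12425 genes. The sums share libraries, so r is a description. HES5 was most like FGFBP3 (r = 0.84), ADGRV1 (0.80) and FAM181A (0.79), and HES6 like NKAIN4 (0.83), TUBB2B (0.81) and TM7SF2 (0.78). NOTCH1 ran with QKI (0.83), RASAL2 (0.81) and FYN (0.80), NOTCH2 with AXL (0.83), METRNL (0.82) and TNFAIP8 (0.80), and NOTCH3 with the unnamed gene ENSSSCG00000005982 (0.80), GLI3 (0.79) and HMGN3 (0.76). DLL1 was most like SPOCK2 (0.67) and its own relative DLL3 (0.65), at the low counts given above. DLL3, a divergent family member known to act against Delta signals during segmentation, was at 465 and 597 CPM in the early paraxial mesoderm of the E16 libraries. JAG1 was most like HEG1 (0.68), HES1 like FNDC3B (0.77), HEY1 like ADAM19 (0.69) and HEYL like ATP1A4 (0.67). No member was among the 3 genes most like another member.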

How the data were processed

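Cells of 8 libraries, each a pool of 5 embryos, were digested with collagenase and sequenced with 10x Chromium 3′ v3 chemistry. The authors made the deposited UMI counts per gene and barcode with Cell Ranger (3.1.0 for both E16 libraries, 3.0.2 for the others, per the file headers) on Sscrofa11.1 with Ensembl 98; the counts are not normalized or corrected between libraries. Of 90688 barcodes, 82394 had at least 200 genes, at most 30000 UMIs and at most 10% UMIs of 13 mitochondrial genes. The barcodes with the highest Scrublet scores (scanpy 1.11.5) were then removed at 0.8% per 1000 barcodes, 8247 in all, while the automatic threshold of Scrublet marked 1318. Cells were classed by a defining marker plus 2 further markers (1 for neural progenitors); 34.5% met no class and 1.34% several, and these stayed out of the class tests.

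Counts were summed per class and library with at least 20 cells, since cells are not replicates, and tested with edgeR 4.0.16 (quasi-likelihood, TMM, filterByExpr; two-sided) with Benjamini-Hochberg adjustment over all genes at 0.05; DESeq2 1.42.0 (R 4.3.3) was an alternative. Stage was fitted with breed as a covariate, breed with the embryonic day as a block, and classes with the library as a block. Fold changes are log2 ± SE. The scripts were tested on simulated data. Each stage and breed had 1 library, so p-values measure the spread between libraries of different stages and breeds. The 10 genes, the pathway list and the marker lists were chosen with earlier results of these data known, and the number of markers per class was set on class sizes and marker purity. The defining markers of 2 classes were changed after the marker values were seen: SOX2 was replaced by SOX3, SOX21 and PAX6 for neural progenitors, and STMN2, also found in connective tissue cells, became a further marker of neurons. Text names all 10 genes and, of 51 measured genes of 53 in the pathway list, up to 6 called genes of largest difference per comparison. Limits and intervals cover counting error only. The TGGGAA search used the genome with pysam 0.24.0, and 1 upstream window and 1 marker gene are not reported here. Whether counting was strand-specific is not given in the sources used here.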

Additional observations from a re-analysis of the deposited data

Results flagged for a closer look

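In 7 of 105 groups of 4 libraries, a single library stood far from the other 3, where chance alone gives about 1 in 20. The gap to the nearest library as a share of the whole range is given with each. In whole late libraries these were NOTCH3 in E28-DZ (46.3 CPM, 0.843 of the range) and HES5 in E21-ZZ (117.1 CPM, 0.936). In connective tissue cells of late libraries they were NOTCH3 in E28-DZ (41.8 CPM, 0.833) and HES5 in E21-ZZ (4.05 CPM, 0.976). In neural crest and glia they were HES1 in E16-ZZ among the early libraries (22.4 CPM, below the others, 0.911) and HES6 in E28-DZ among the late ones (274.2 CPM, 0.840). In endothelial cells of early libraries it was JAG1 in E16-ZZ (79.6 CPM, 0.854).

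The stage effect in neural crest and glia was set against that in neurons in a joint edgeR fit that was chosen after the values of both classes were seen. For the 7 genes tested over stage in both classes it differed, by 3.62 on the log2 scale for NOTCH1, 3.72 for NOTCH3, 5.58 for JAG1, 3.28 for HES1, 5.17 for HES5, 2.65 for HES6 and 4.09 for HEY1. NOTCH2 (2.17) and HEYL (3.28) were in the fit through neural crest and glia alone, and the NOTCH2 value no longer passed without E18-DZ (1.60). The joint fit drew on the same sums as the stage tests of each class and is no separate support for them.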

How the results depend on the processing

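The 44 planned calls and those of the joint fit of neural crest and glia with neurons gave 835 values under the alternatives tried. Of these, 736 kept their call, 99 lost it and 0 changed direction. No alternative was tried for the stage tests in muscle progenitors, myocytes, neural progenitors and sclerotome, which were chosen after seeing the data. Leaving out both E16 libraries lost 13 calls and leaving out both E28 libraries 9. In whole libraries the 2 stage calls fell to 0 without the E16 libraries. A test for any difference between stages called 5 genes, but the share of all genes that it called is not given here, so that count cannot be read against a background. The 23 stage calls within classes became 14 with at least 50 cells per sum, 35 with at least 2 libraries on each side (chosen after seeing the data) and 17 to 23 when each library was left out in turn. The 2 breed calls within classes became 8 with no filter on low counts, 1 with DESeq2 size factors, a mitochondrial limit of 5% or 1 marker more or fewer, 6 without the E28 libraries and 3 to 6 with single libraries left out. For muscle progenitors against dermomyotome progenitors the 2 calls became 0 with the DESeq2 test, DESeq2 size factors, a mitochondrial limit of 5%, or without the E28 or the E16 libraries, 1 with at least 50 cells per sum and 0 to 1 with single libraries left out. For myocytes against committed myoblasts the 3 calls became 0 without the E28 libraries and 1 to 4 with single libraries left out. The share of all genes called under each of these settings is not given here either, so these counts too cannot be read against a background. These settings leave fewer cells or libraries, or change the scaling or test. The cause was not tested. For pairing by replicate number, no paired analysis was possible because every group held 1 library, numbered 1; the breed tests compared the libraries of an embryonic day with that day as a block. The planned comparison of cells with and without DLL1 was not run, since at most 6 neural progenitors and 16 cells of the muscle lineage per library held a DLL1 UMI, under the 20 cells needed. Depth limits DLL1 throughout, and HEY1, HES5 and HEYL where a class held under 10 UMIs.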
